A study of Homo sapiens with 6 samples.

Results

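The inner 1p36 to 1p35 stretch is the 5 Mb of human chromosome 1 from 25000000 to 30000000 in the hg19 build, and its members are 820 regions bound by tagged histone H2A.Z, of 198179 in the whole series. The peaks of ubiquitylated H2A.Z and of total H2A.Z were joined wherever they overlapped or touched, and a joined region belonged to the stretch when its midpoint lay between those limits. The members were thus chosen by measured peaks, and the limits were set with the balance between both forms already known, so peak numbers, overlaps and directions below describe the stretch and were not tested. The last region outside on the telomere side, chr1:24968001-24968618, and the first inside, chr1:25015375-25015639, were in neither differential list. The same held at the other limit for the last region inside, chr1:29877645-29878034, and the first outside, chr1:30028107-30028384.

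All samples came from HEK293T, an established line of human embryonic kidney cells, 48 hours after transfection of plasmids for H2A.Z-1 fused at its C-terminus to Flag and BirA and for ubiquitin with an AviTag at its N-terminus. There were 3 groups of 2 samples, all made from these transfected cells: ubiquitylated H2A.Z, recovered on streptavidin-agarose; total tagged H2A.Z, recovered on Flag M2-agarose and called the total pool below; and histone H3, recovered with an antibody. BirA is a bacterial enzyme that attaches biotin to the AviTag, so streptavidin holds nucleosomes with tagged ubiquitin within reach of the fusion protein, and the Flag resin holds all nucleosomes with the fusion protein. The tagged histone came from a plasmid, so the maps are of the tagged and not of the cell's own H2A.Z, and the labels do not say whether replicates were separate cultures. Each form has 1 deposited peak list for both replicates, with no counts and no values per library, so read depth is unknown and single regions carry no error over replicates other than the authors' own rates. The H3 samples enter no comparison here.

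The histone variant H2A.Z takes the place of H2A in nucleosomes, where remodelling complexes such as SRCAP and p400 insert it, often beside transcription start sites and at enhancers. Part of it carries a single ubiquitin near the C-terminus, which the Polycomb ligase RING1B can attach, and this form is known from silent chromatin, the inactive X chromosome included. Deubiquitylating enzymes such as USP10 remove it, which in other systems accompanies gene activation.

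The stretch is rich in genes. In the RefSeq annotation of GRCh38.p14, used here for gene order alone, 168 genes run from RUNX3, a transcription factor of lymphocytes and neurons near the telomere side, to PTPRU, a receptor tyrosine phosphatase near the centromere side, and 86 of them encode proteins. Short lists of genes by role were drawn from this run itself, so they describe its content and are no sample of such genes elsewhere. One list holds 12 transcription and chromatin regulators, among them ARID1A, a subunit of the BAF chromatin remodeller, HMGN2, a nucleosome-binding protein, TAF12 and MED18, which belong to the TFIID and Mediator complexes, and RCC1, a chromatin-bound exchange factor for Ran. The others hold 9 blood and immune genes, among them the Rhesus blood group genes RHD and RHCE, 9 genes used in nearly every cell, among them RPA2 of the single-strand DNA binding complex RPA, and 10 neural, muscle and epithelial genes, among them STMN1, a microtubule destabiliser. The peaks are in hg19 coordinates and no hg19 annotation was used here, so no region below is assigned to a gene, a promoter or an intron.

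Ubiquitylated H2A.Z was mapped at fewer places than total H2A.Z in this stretch. It had 507 ubiquitylated against 684 total peaks, a ratio of 0.741, whereas in the rest of the series the lists were of nearly the same length (ratio 1.00). The peaks covered 208 kb for the ubiquitylated and 271 kb for the total form, and together 6.74% of the stretch. Median peak width was similar, at 315 bp for ubiquitylated peaks (quartiles 227 and 504 bp) and 323 bp for total peaks (quartiles 228 and 475 bp).

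Most ubiquitylated peaks lay where total H2A.Z also had a peak. A shared base with a total peak was found for 364 of the 507 ubiquitylated peaks (71.8%, Wilson 95% interval 67.7 to 75.5%), against 60.1% over the whole ubiquitylated list. Of the 684 total peaks, 363 (53.1%, 49.3 to 56.8%) overlapped a ubiquitylated peak, against 59.8% over the whole list. The shared peaks were nearly equal in number, so the higher share of the ubiquitylated list goes with its fewer peaks. In bases, 142 kb were common to both, which is 68.3% of the ubiquitylated and 52.5% of the total H2A.Z bases. All such intervals cover counting error only and take regions as independent, which neighbours are not.

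After joining, 143 regions (17.4%) held ubiquitylated peaks only, 321 (39.1%) total peaks only and 356 (43.4%) peaks of both. In the rest of the series these classes made up 28.9%, 29.1% and 41.9%. Regions with both forms were the widest, with a median of 419 bp (quartiles 306 and 695 bp), against 290 bp for ubiquitylated-only and 273 bp for total-only regions. Such a region joins peaks of both lists by rule, so its greater width follows in part from the joining. The whole series had the same order, at 425, 276 and 251 bp. The widest member, chr1:26371485-26373968, spanned 2484 bp, and the next were chr1:27675875-27678307 at 2433 bp, chr1:26200962-26202999 at 2038 bp, chr1:28011896-28013915 at 2020 bp and chr1:28286018-28287955 at 1938 bp. All 5 held both forms, and of them the authors' deposited table lists only chr1:26200962-26202999 as differential, higher in the total pool (log2 fold change -0.41, FDR 0.0079). Of the 820 members, 8 reached 1500 bp.

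The irreproducible discovery rate (IDR) is the authors' own value for each peak and is low where a peak repeats well between replicates. Its median was 0.00105 for the ubiquitylated and 0.00342 for the total peaks of the stretch, close to 0.00137 and 0.00335 over the whole lists. Peaks that overlapped the other form had lower values, with a median of 0.000845 against 0.00170 without a partner in the ubiquitylated list, and 0.00313 against 0.00378 in the total list. The ubiquitylated peak of lowest IDR lay in chr1:28908480-28908821 (5.03e-07), a region whose total peak had the second lowest IDR of its list (3.02e-05). The other 4 lay in chr1:25026295-25026554, chr1:28284955-28285936, chr1:29876315-29877551 and chr1:29139440-29139879, and none of these 5 was differential. In the total list the lowest IDR, 1.19e-05, belonged to chr1:27319247-27320049. The remaining 3 lay in chr1:27981671-27982403, chr1:27684238-27684421 and chr1:26547008-26547418.

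The comparison of streptavidin with Flag pull-downs asks where ubiquitylated H2A.Z is over- or under-represented relative to all tagged H2A.Z. In this stretch the differential regions leaned towards the total pool: 33 members were higher in ubiquitylated and 160 in the total pool, or 4.85 regions higher in total for each region higher in the ubiquitylated form. The 33 are 4.02% of the 820 members (2.88 to 5.60%), where 9.39% of all regions of the series were called in that direction. The 160 are 19.5% (16.9 to 22.4%), where the series had 12.1%. In either direction 193 members were called, 23.5% against 21.5%, so the share of differential regions in all was near that of the series. Since the limits were drawn knowing this contrast, nothing is read from these differences. The pull-downs used different reagents, and a difference between reagents cannot be told apart from one in ubiquitylation.

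**Figure D1:**
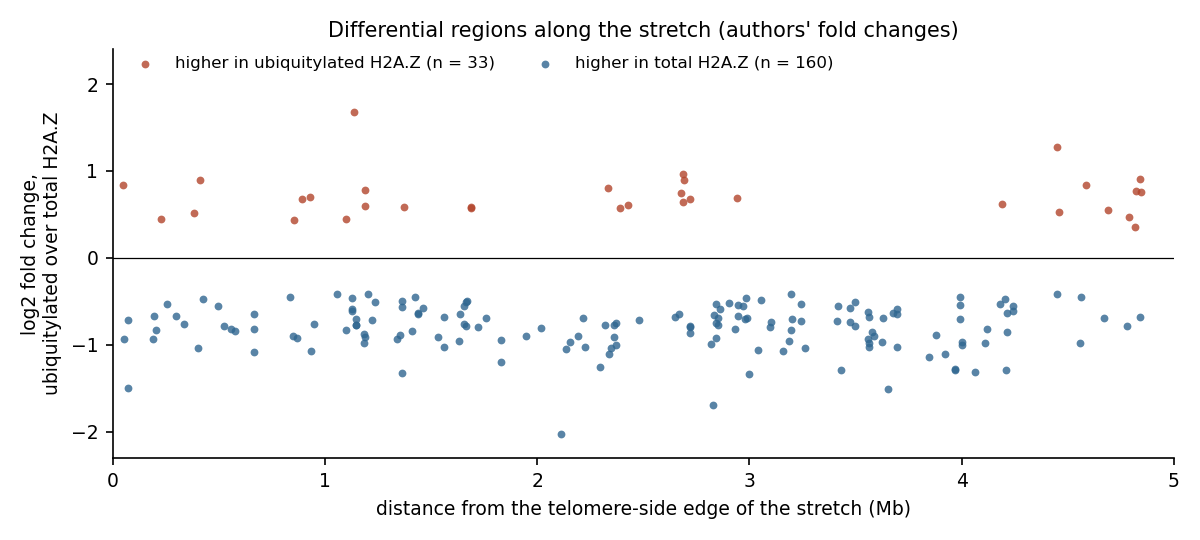
The authors' log2 fold change of ubiquitylated over total H2A.Z (vertical) for each of the 193 differential regions, by distance in Mb from the telomere-side edge (horizontal). The 33 regions above 0 are scattered, with none between about 3 and 4 Mb, while the 160 below 0 run along nearly the whole stretch.

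The size of the single changes was modest in both directions. For the 33 regions higher in the ubiquitylated form, fold changes in the authors' deposited table had a median of 0.68 on the log2 scale (quartiles 0.57 and 0.80, range 0.36 to 1.68), a 1.60-fold difference. For the 160 regions higher in the total pool, that median in the authors' deposited table was -0.78 (quartiles -0.95 and -0.63, extreme -2.03), a 1.71-fold difference. Over the whole series the authors' deposited table has medians of 0.68 and -0.76, close to those of the stretch. Changes of at least 2-fold were found in 2 members towards the ubiquitylated form (0.244%, where the series had 1.47%) and in 29 towards the total pool (3.54%, where the series had 2.39%). The base of the fold changes is not written in the files and was taken as 2, and how the libraries were scaled to each other is not stated either.

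Regions with a single form made up most of the differential ones, as in the whole series. Ubiquitylated-only regions were 75.8% of those higher in ubiquitylated, and total-only regions 78.8% of those higher in the total pool. Over the whole series these shares were 73.1% and 73.6%. Of the 143 ubiquitylated-only regions, 25 (17.5%, 12.1 to 24.5%) were higher in ubiquitylated and none in the total pool. Of the 321 total-only regions, 126 (39.3%, 34.1 to 44.7%) were higher in total and none in the ubiquitylated form. The whole series had 23.8% and 30.5% for these classes, and only 0.127% and 0.0831% of them in the opposite direction. Peak calls and fold changes come from the same reads, so the match of class and direction is a description and no separate result. Of the 356 regions with both forms, 8 (2.25%) were higher in ubiquitylated and 34 (9.55%) in the total pool, against 5.97% and 7.52% for this class in the whole series. Fold changes of these regions in the authors' deposited table had medians of 0.60 for the 8 and -0.56 for the 34 on the log2 scale. A region with a peak of a single form was often not differential, as 118 ubiquitylated-only and 195 total-only members were in neither differential list.

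The region most firmly higher in the ubiquitylated form was chr1:29449391-29450175, a ubiquitylated-only region 785 bp wide, for which the authors' deposited table has a log2 fold change of 1.27 at an FDR of 3e-09. Second came chr1:27332171-27333468, at 1298 bp the widest region of the 33 (0.80 with FDR 1.4e-06 in the authors' deposited table). The next regions, chr1:29189106-29190256 and chr1:29844809-29845593, held both forms and changed by 0.62 and 0.75 in the authors' deposited table. The other 6 of the 10 regions of lowest FDR were chr1:27690304-27690887, chr1:27687348-27687872, chr1:29586755-29587506, chr1:26136088-26136317, chr1:25047797-25048454 and chr1:27684633-27685360. Among them the 230 bp region chr1:26136088-26136317 had the largest change of all 33 in the authors' deposited table, 1.68 on the log2 scale or 3.20-fold (FDR 0.00022). The third largest, 0.97 at chr1:27687348-27687872, stayed below 2-fold. Of these 10 regions, 7 held ubiquitylated peaks only, and 4 lay in the last 1 Mb of the stretch.

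On the other side, chr1:26362030-26362569 led, a total-only region 540 bp wide listed in the authors' deposited table at a log2 fold change of -1.32 with FDR 7.2e-09. Behind it the authors' deposited table has chr1:28261375-28261986 (-1.03, FDR 2.2e-08), chr1:26827571-26828287 (-1.20, FDR 2.9e-08) and chr1:28696242-28696880 (-1.03, FDR 5.7e-08). The remaining 6 of these 10 were chr1:29062870-29063193, chr1:28157393-28157910, chr1:25071294-25071585, chr1:28969164-28969493, chr1:29208890-29209227 and chr1:28879624-28880178. All but the last of these 10, which held both forms, were total-only regions. The largest changes towards the total pool belonged to narrow regions: in the authors' deposited table chr1:27114168-27114308, 141 bp wide, stood at -2.03 (4.09-fold lower in the ubiquitylated form, FDR 5e-06). Behind it the authors' deposited table has chr1:27826817-27827037 (221 bp, -1.69) and chr1:28654976-28655191 (216 bp, -1.51).

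Regions higher in the ubiquitylated form were broader than those higher in the total pool. Their median width was 658 bp (quartiles 409 and 785 bp, range 192 to 1298 bp), against 339 bp for regions higher in the total pool (quartiles 238 and 537 bp, range 140 to 2038 bp) and 319 bp for members in neither differential list. At least 500 bp wide were 23 of the 33 (69.7%), 47 of the 160 (29.4%) and 138 of the 627 (22.0%). The width of a merged region depends on the peaks that the authors called, so width and direction are not independent measures. The whole series showed the same order, at 507, 362 and 295 bp.

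**Figure D2:**
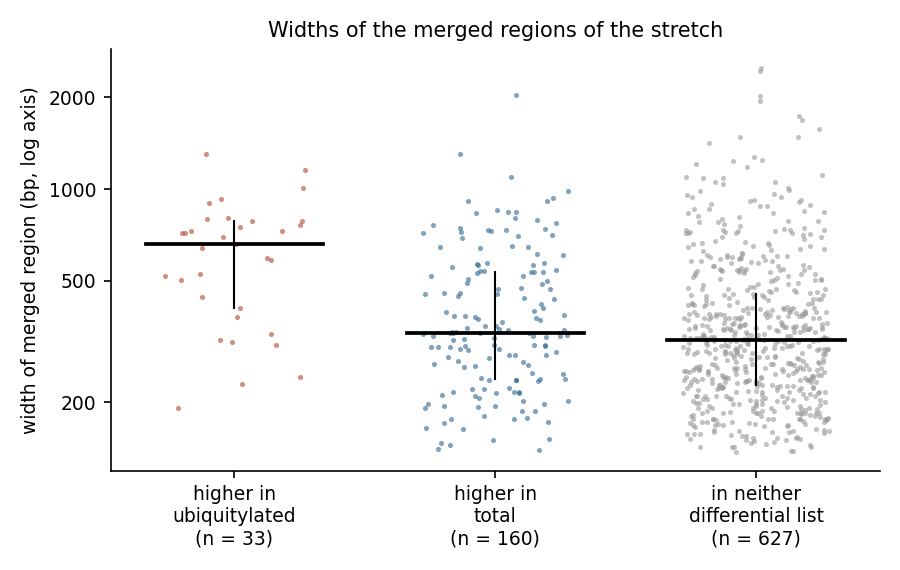
Width of each of the 820 merged regions in bp on a log axis, by direction; thick lines are medians and thin lines run from the first to the third quartile. The 33 regions higher in the ubiquitylated form centre on 658 bp, above the 339 bp of those higher in the total pool and the 319 bp of the others.

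The 341 members with exactly 1 peak of each form allow the 2 footprints to be set side by side. Over all of them the ubiquitylated peak was the wider in 128 and the total peak in 211, with medians of 333 and 363 bp and a median difference of -18 bp (ubiquitylated minus total, quartiles -78 and 15 bp). The centres of the paired peaks lay close together, a median of 20.5 bp apart with an upper quartile of 66.5 bp. In all 8 such regions that were higher in the ubiquitylated form the ubiquitylated peak was the wider, by a median of 358 bp, and the centres were a median of 150 bp apart. In all 33 that were higher in the total pool the total peak was the wider, the difference being -186 bp at the median. Among the 300 in neither differential list the difference was -15 bp. At chr1:29189106-29190256, for example, the ubiquitylated peak spanned 1151 and the total peak 448 bp, whereas at chr1:29787579-29788298 the widths were 720 and 706 bp. Peak width and fold change come from the same reads, so the match between them is a description.

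**Figure D3:**
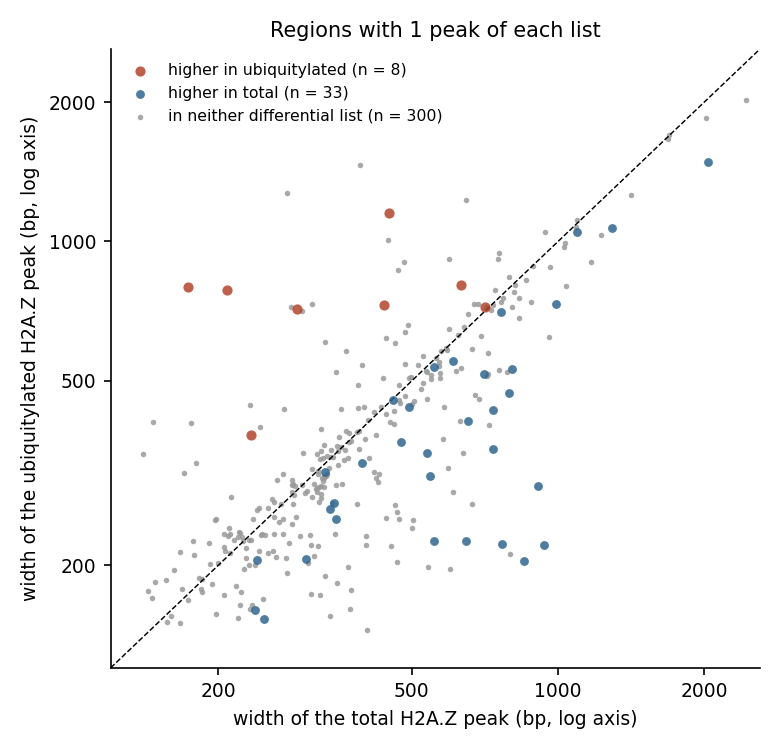
Width of the ubiquitylated peak (vertical) against that of the total peak (horizontal), both in bp on log axes, in the 341 regions with 1 peak of each list; the dashed line marks equal widths. All 8 regions higher in the ubiquitylated form lie above the line and all 33 higher in the total pool below it.

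The lean towards the total pool ran along most of the stretch but was not seen in its last 0.5 Mb, which held few differential regions. In 9 of 10 bins of 0.5 Mb more regions were higher in total than in the ubiquitylated form, and in 9 of 10 there were more total than ubiquitylated peaks. Over the first 4.5 Mb the counts were 26 regions higher in ubiquitylated and 155 higher in the total pool, so that 14.4% of the differential regions (10.0 to 20.2%) were higher in the ubiquitylated form. In the last 0.5 Mb there were 7 higher in ubiquitylated and 5 higher in the total pool, or 58.3% in the ubiquitylated direction (32.0 to 80.7%). That bin had 84 ubiquitylated against 82 total peaks. The next 0.5 Mb beyond the limit, which is outside the stretch, had 7 and 3, whereas the whole adjoining 5 Mb on that side had 85 and 133. On the telomere side, the 0.5 Mb before the stretch had 0 and 13.

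The bins at 3 to 3.5 and 3.5 to 4 Mb from the telomere-side edge held no region higher in the ubiquitylated form, against 19 and 22 higher in the total pool. The second of them, chr1:28500000-29000000, had the fewest ubiquitylated peaks, 14 against 48 total peaks. Of its 50 regions, 2 held ubiquitylated peaks only, 36 total peaks only and 12 both, and 44.0% of them were higher in the total pool. Yet this bin also held the ubiquitylated peak of lowest IDR, at chr1:28908480-28908821. The bin with the most regions was the first, with 151 members, of which 4 were higher in ubiquitylated and 12 in the total pool. Those 12 are 7.95% of its members, below the 12.1% of the whole series, so the lean there is one among few differential regions.

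**Figure D4:**
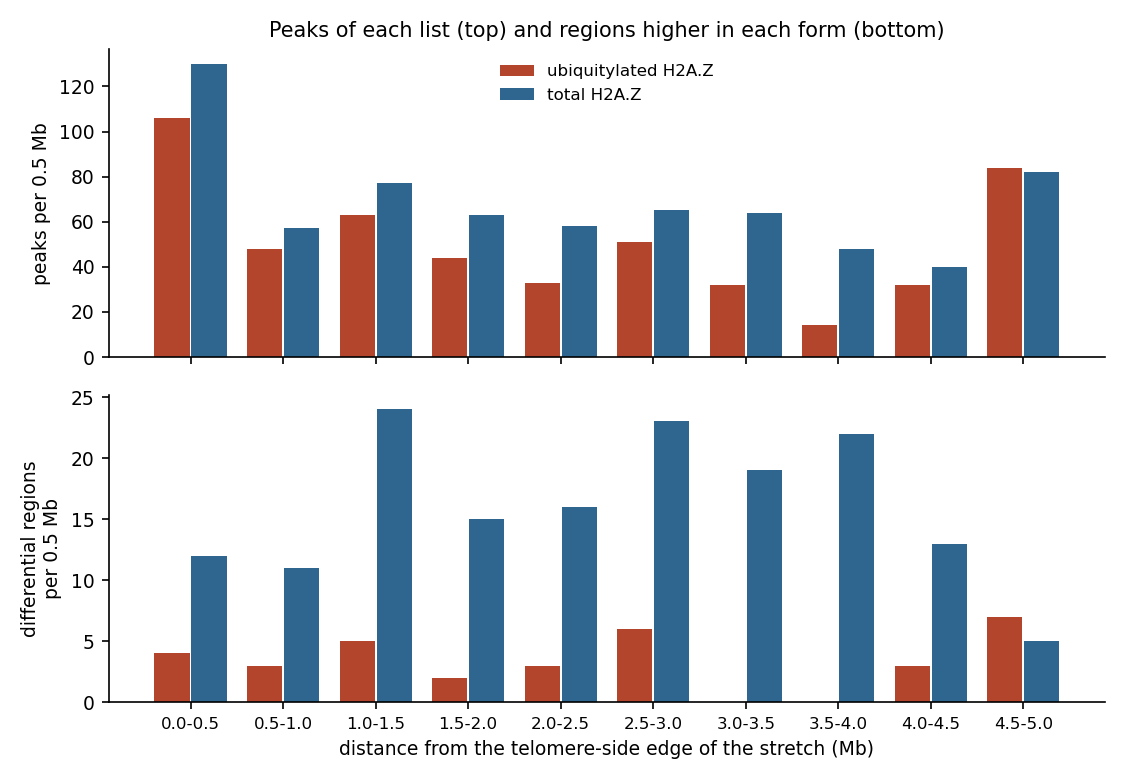
Peaks of each list (top) and differential regions higher in each form (bottom) in 10 bins of 0.5 Mb, by distance from the telomere-side edge; red bars are ubiquitylated and blue bars total H2A.Z. Blue exceeds red in every bin but the last, and no red bar stands in the lower panel from 3 to 4 Mb.

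Read in order along the chromosome, the 193 differential members fell into 45 series of 1 direction, 23 towards ubiquitylated and 22 towards the total pool. Of the 23, 16 were single regions. The longest series towards the total pool held 54 regions, 33.8% of all members in that direction, from chr1:27944956-27945294 to chr1:29181779-29182312, a span of 1.24 Mb. In the authors' deposited table its median was -0.76 on the log2 scale, the same as for all regions higher in the total pool over the whole series. Of its 54 regions, 14 had changed by at least 2-fold, against 29 of the 160 in the stretch and 4738 of 23960 in the whole series. The span covered 167 members, of which 15 held ubiquitylated peaks only, 95 total peaks only and 57 both. The remaining 113 were in neither differential list, including all 15 ubiquitylated-only regions. For those 15 this follows from the definition of a series, since no ubiquitylated-only member of the stretch was higher in the total pool. The next series held 15 regions, from chr1:26409914-26410078 to chr1:26668656-26669570, and 14 regions, from chr1:26722691-26722892 to chr1:27319247-27320049. With 82.9% of differential members in 1 direction, the length of these series is to be read beside that composition. No chance expectation of that length was computed.

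Within the limits, the longest series towards the ubiquitylated form held 4 regions in 11.2 kb, from chr1:27679726-27680044 to chr1:27690304-27690887. In the authors' deposited table their log2 fold changes were 0.75, 0.65, 0.97 and 0.90 in chromosome order. Of the 9 members in that interval, 6 held ubiquitylated peaks only and 3 both forms, and none was total-only. A series from chr1:29842144-29842335 has 2 regions in the stretch and runs on past the limit on the centromere side to reach 4 as well. The total peak at chr1:27684238-27684421, with the fourth lowest IDR of its list, also lay within this interval, and the second widest member, chr1:27675875-27678307, ended 1.4 kb before it.

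Consecutive differential members had the same direction in 77.1% of pairs, which is to be read beside their composition. Opposite pairs under 1 kb apart were rare. Of the 192 pairs of consecutive differential members, 148 had the same direction, 10 of these pairs towards ubiquitylated and 138 towards the total pool, and 44 had opposite directions. Of the 39 pairs under 1 kb apart, 37 (94.9%) had 1 direction and 2 were opposite. The same direction was found in 35 of the 52 pairs at 1 to 10 kb (67.3%) and 76 of the 101 pairs at 10 kb or more (75.2%). The share was thus highest under 1 kb and lowest at 1 to 10 kb. With 82.9% of the differential members higher in the total pool, pairs drawn at random from that composition would share a direction in 71.7%. The share over all pairs is not far from this, that at 1 to 10 kb is below it, and the difference was not tested. The closest opposite pair was chr1:26095954-26096881, higher in ubiquitylated, and chr1:26097394-26097565, higher in the total pool, 512 bp apart. After the region with the lowest FDR towards the ubiquitylated form, chr1:29449391-29450175, the next differential member came 1227 bp on. That member was chr1:29451403-29452705, higher in the total pool (-0.42 on the log2 scale in the authors' deposited table). The total peak of lowest IDR, in chr1:27319247-27320049, lay in a region higher in the total pool (-0.78 in the authors' deposited table), and the next differential region was chr1:27332171-27333468, higher in the ubiquitylated form.

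The nearest differential neighbour, in either direction along the chromosome, had the same direction for 12 of the 33 regions higher in the ubiquitylated form (36.4%, 22.2 to 53.4%) and for 138 of the 160 higher in the total pool (86.3%, 80.1 to 90.7%). These shares are to be set beside the composition of the stretch, in which 17.1% of the differential members were higher in ubiquitylated and 82.9% in the total pool. Over the whole series, with 18614 regions higher in ubiquitylated and 23960 in the total pool, the shares were 71.6% and 79.4%. Median gaps to that neighbour were 4.61 kb for regions higher in the ubiquitylated form and 3.62 kb for regions higher in the total pool, against 5.22 and 5.45 kb over the whole series.

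Members were unevenly spaced. Of the 819 gaps between successive members, 363 (44.3%) were under 1 kb, the median was 1.28 kb and 15 exceeded 50 kb. The longest gaps were 207 kb after chr1:29241091-29242078 and 148 kb after chr1:28696242-28696880. The region just after the longest gap was chr1:29449391-29450175, the most firmly called in the ubiquitylated direction, and the region just before the second longest was among the 4 most firmly called towards the total pool. Their other flanks, chr1:29241091-29242078 and chr1:28845243-28845571, were higher in the total pool (FDR 0.00043 and 9.6e-06 in the authors' deposited table). These flanks were picked after their values were seen, and flanks of the next longest gaps included members in neither differential list. Within 10 kb of their midpoint, regions higher in the ubiquitylated form had a median of 7 other members (quartiles 6 and 10), those higher in the total pool 5 (quartiles 2 and 7) and members in neither differential list 7 (quartiles 4 and 9). Without any other region within 10 kb were 16 of all 820 members (1.95%), of which 0 were among the 33, 9 among the 160 and 7 among the 627. At that low share, 33 regions are too few for the 0 to set them apart.

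Along the short arm the share of differential regions higher in the ubiquitylated form was 92.1% in the outermost 5 Mb (477 regions higher in ubiquitylated and 41 in the total pool), 73.5% in the next 5 Mb, 44.1% at 10 to 15 Mb, 44.2% at 15 to 20 Mb and 33.9% at 20 to 25 Mb. In the stretch it was 17.1% (12.4 to 23.0%), and at 30 to 35 Mb 39.0% (32.8 to 45.6%). The following 5 Mb windows, from 35 to 55 Mb, had 40.2%, 23.5%, 30.3% and 21.9%. Of these, the windows at 40 to 45 Mb (16.7 to 32.0%) and 50 to 55 Mb (14.8 to 31.1%) had intervals well into that of the stretch. In number, the regions higher in the total pool exceeded those of each of the other 44 windows of 5 Mb on chromosome 1 that had at least 20 differential regions, and 1 of those windows had a lower share in the ubiquitylated direction. In the whole genome, 52 of 515 such windows had a lower share, and the median window had 33.3%. The stretch is also dense in regions, with 820 against a median of 247 per window, and 52 windows held more. As a share of its regions, those higher in the total pool made up 19.5%, which 112 of the 515 windows exceeded, and those higher in the ubiquitylated form 4.02%, with 51 windows lower.

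**Figure D5:**
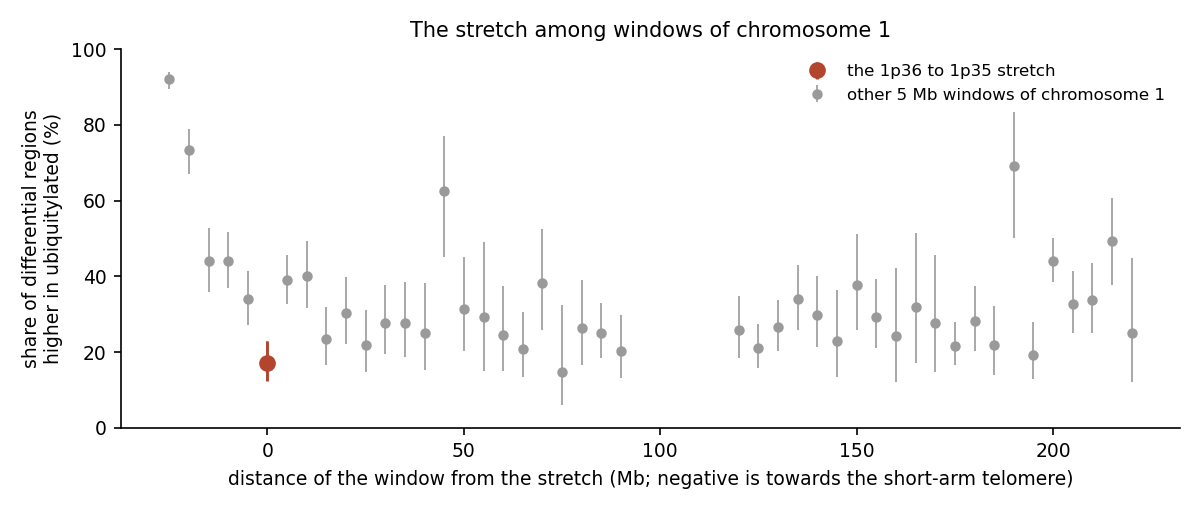
Share of differential regions higher in the ubiquitylated form (percent, vertical) in 5 Mb windows of chromosome 1 with at least 20 differential regions, by distance in Mb from the stretch; bars are Wilson 95% intervals for counting error. The stretch, in red, stands at 17.1%, below both adjoining windows (33.9 and 39.0%), and the outermost short-arm window stands at 92.1%. Many windows further along have intervals that overlap that of the stretch.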

How the data were processed

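The members and lists were chosen with earlier results of these data known. Bowtie, SAMtools, MACS2, edgeR and hg19 are named in the submitters' processing notes, with no version, setting or role. The authors deposited 1 peak list per H2A.Z form with a q-value-like rate per peak of at most 0.05, taken as the IDR because the file names say so. The authors also deposited differential regions with an FDR of at most 0.05 and a fold change, read as log2. Starts were raised by 1 base, on the assumption that they count from 0. All 42574 differential regions matched 1 merged region exactly. Depth per sample is unknown. No test was run, because the rule used this contrast and no file holds values per library. Intervals are Wilson 95% intervals. Regions named are, per direction, the 10 of lowest FDR and 3 of largest change, the 5 of lowest IDR per list, the 5 widest, the ends of the 3 longest series and those at the limits; others given as examples were picked after their values were seen. Merging, overlaps and neighbours were tested on simulated intervals. No sequence is printed, since no hg19 genome was used here. Tools were scipy 1.17.1, pandas 2.3.3, numpy 2.4.6 and matplotlib 3.10.9 under Python 3.11.15.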

Additional observations from a re-analysis of the deposited data

How the results depend on the processing

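No paired analysis was possible because each list combines the replicates of its group, which also kept single replicates from being left out; distances to transcription starts, which need an hg19 annotation, were not run. Of 18 alternatives, 7 kept the value within its counting interval (counts within 1.5 times). The difference in median width has no such interval. It alone was checked for a reversed direction, which none of its settings gave. When overlap had to reach 50% of both peaks, the shared part was 60.6% of the ubiquitylated and 44.9% of the total peaks, and with peaks under an IDR of 0.01 alone 55.9% and 48.7%. At an FDR under 0.01, 2.56% of the members (21 regions) were higher in the ubiquitylated form and 11.6% (95 regions) in the total pool. Over the whole series, 10230 and 14052 of the 198179 regions passed that limit. At 2-fold or more the shares were 0.244% and 3.54%, against 1.47% and 2.39% over the whole series. Fewer regions can pass these rules by construction. The share of differential regions higher in the ubiquitylated form was 6.45% at 2-fold or more, which rests on 31 regions, and 13.3 to 19.0% under the other settings, one of which, leaving out the last 0.5 Mb, was chosen after seeing the data. The difference in median width, 320 bp, was 216 bp at 2-fold or more and 130.0 bp among regions with both forms, in each case with regions higher in the ubiquitylated form wider.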
